A study of Mus musculus with 319 samples.

Results

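The 10 genes described here encode S100 calcium-binding proteins: S100a1, S100a4, S100a6, S100a8, S100a9, S100a10, S100a11, S100a13, S100a14 and S100a16. They were taken by name from a list, and all 10 had an entry in both deposited count tables, among 48795 gene entries. The data are read counts per gene from single mouse thymic epithelial cells, each sorted into its own well and read along the whole transcript (Smart-seq2), with no molecular identifiers. The gate took EPCAM+, Flare25+ and MHCIIlo cells that were negative for UVBlue, CD11c and CD45. Flare25 reports Il25, a cytokine of tuft cells, so a cell entered only if the Il25 reporter was on. All mice were naive, of mixed sex and homozygous for Flare25. One set of cells was labelled Flare25/Flare25 Aire-/- (strain C57BL/6.Il25.Aire, batch 2, 6 weeks old except 1 cell labelled 5 weeks), and 96 of 96 wells were kept. It was set against Flare25/Flare25 cells with no Aire allele in the label (strain C57BL/6.Il25, 6 weeks, here WT batch 2), with 89 of 92 wells kept. Batch 1 held the same wild-type genotype, strain and age in a set called June29, with 87 of 95 wells kept, and a set called June5, with 29 of 31 kept. Beside them, batch 2 had 50-cell wells, 1 per genotype, and batch 1 a no-cell well. Batch 2 had 2 labelled no-cell wells without counts, so its sets have no background well of their own batch. Cells came from pooled thymi and no label ties a cell to a mouse, so each set is 1 sample, cells are not replicates, and no difference between sets has a replicate check.

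S100 proteins are small dimers in which each chain carries a pair of EF-hand loops, and most of them expose a binding face for annexins, myosins or other partners when calcium binds. Some are also released from cells and act on receptors of inflammation such as RAGE and TLR4. Tuft cells are chemosensory epithelial cells that answer taste-type receptors with a rise in calcium, which opens the channel Trpm5. Most S100 genes lie in the mouse in a cluster on chromosome 3, near the genes of the cornified skin envelope.

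Levels are given as CPM, a gene's reads in all kept cells of a set relative to that set's total of gene reads, and a cell is called positive for a gene at 5 or more reads. Gene reads per kept cell had medians of 638298 in the set labelled Aire-/-, 566923 in WT batch 2, 1150167 in WT June29 and 539655 in WT June5. Most cells of the sets were tuft cells by their markers. Avil, which encodes the actin regulator advillin, was positive in 95 of 96 cells labelled Aire-/- and in 87 of 89, 87 of 87 and 29 of 29 of WT batch 2, June29 and June5 cells. Pou2f3, another tuft marker, was positive in 80 of 96, 62 of 89, 62 of 87 and 21 of 29 cells in the same order. Over 15 tuft markers the lowest cell had 107.45, 24.4, 349 and 6281 CPM, so some kept cells had few tuft reads. Aire itself, which switches on tissue antigens in medullary epithelium of the thymus (mTEC), was at 152.7 CPM in the set labelled Aire-/-, against 18.9 in WT batch 2, 11.2 in June29 and 7.84 in June5. The labels do not say which part of the gene the allele removes, so gene reads do not check the label, and the cells are called here by it. The no-cell well of batch 1 had 9892 gene reads, with 1 of S100a1, 2 of S100a13, 1 of S100a14 and 0 of the other members. Of the cells labelled Aire-/-, 86 of 96 had 5 or more Xist reads and fewer than 5 Y-linked reads, against 42 of 89 cells of WT batch 2. With Y-linked but not Xist reads at that limit there were 0 and 30 cells, so the sets differed in the sexes they held. The other 10 cells labelled Aire-/- reached the limit for neither. The set labelled Aire-/- thus had no cell with Y-linked reads at that limit, though mixed sex is given for the mice. Well kw_tuft_173 of the set labelled Aire-/- stood apart with 3728 CPM over 8 markers of Aire-expressing mTEC, the highest of its set, where the median cell had 133.3. Its 943 CPM over 15 tuft markers lay below the set's median of 15830, but not lowest, since another cell had 107.45. The calls of S100a6, S100a14 and S100a16 are given with and without well kw_tuft_173.

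The 10 members lie on chromosome 3 in GRCm38, in groups. S100a1 (minus strand) and S100a13 (plus strand) start back to back, with 42 bases between their ends in GENCODE, followed by S100a14 and S100a16, 8416 bases apart. S100a4 and S100a6 are 6836 bases apart, and S100a8 and S100a9, the subunits of calprotectin, 22596. S100a11 and S100a10 lie 2824766 bases further on and 28792 apart. The full stretch between these ends, chr3:90514393-90514434 (plus strand), is shown because it lies between the most abundant member and its neighbour in GENCODE, while the RefSeq start of S100a1 lies further back, inside the GENCODE gene. It and the next 2 sequences are from RefSeq, build GRCm38.p6.
Between S100a1 and S100a13: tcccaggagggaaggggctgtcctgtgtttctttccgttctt
Of the 10 members, 8 had an entry in the promoter table (S100a10 and S100a14 had none), and S100a16 had 2 starts. In the 250 bases before these starts, both strands were searched for the TATA box TATAAA, the CCAAT box CCAAT, the AP-1 site TGANTCA, the GC box GGGCGG and the octamer ATGCAAAT, which are held by 12.4%, 33.8%, 6.75%, 32.7% and 1.6% of 32851 promoters. S100a4 and S100a8, which few cells here expressed, each hold a TATA box, starting 31 and 30 bases before the RefSeq start, which for S100a8 lies within the first exon of GENCODE. The last 60 bases before S100a4 are shown with that box in capitals, at chr3:90603710-90603769 (plus strand).
S100a4: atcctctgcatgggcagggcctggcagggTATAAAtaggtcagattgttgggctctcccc
S100a11, positive in most cells, holds no TATA box in these letters and has 2 AP-1 sites and 3 GC boxes, in capitals in its last 150 bases at chr3:93520346-93520495 (plus strand).
S100a11: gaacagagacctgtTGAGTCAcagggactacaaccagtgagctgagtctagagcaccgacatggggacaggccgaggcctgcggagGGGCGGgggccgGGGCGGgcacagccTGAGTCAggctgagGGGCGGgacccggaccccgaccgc
S100a6 had a CCAAT box, S100a9 a GC box, and the later S100a16 start an AP-1 site and a GC box. S100a1, S100a13 and the earlier S100a16 start held none of these letters, and the octamer was in no member's window. A match is a run of letters, not a bound site.

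The members fell into those read in most cells and those read in few. S100a1, S100a11 and S100a13 were positive in 67.8% or more of cells in each set, S100a16 in 37.9% to 71.9%, S100a14, S100a6 and S100a10 in 10.3% to 45.8%, and S100a4, S100a8 and S100a9 in at most 13.5%. These shares depend on depth. Thinned to 231697 reads, without the shallower cells, S100a13 was positive in 77.4%, 74.7%, 50.6% and 60.9% (set labelled Aire-/-, WT batch 2, June29, June5). S100a11 was then positive in 86.9%, 87.3%, 58.8% and 78.3% in the same order. Per kilobase of exon, S100a1 had the highest level and S100a11 the next in all 4 sets. S100a13 and S100a16 took the places after them, with S100a16 ahead in the set labelled Aire-/- (198.9 against 129.9 CPM per kb) and S100a13 ahead in the wild-type sets (129.4 against 84.2 in WT batch 2, 66.9 against 52.1 in June29, 111.7 against 78.5 in June5). A median cell was positive for 5 members in the set labelled Aire-/-, for 4 in WT batch 2, and for 3 in both June29 and June5. All 10 members together took 1323 CPM in the set labelled Aire-/-, 1013 in WT batch 2, 520 in June29 and 791 in June5.

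**Figure D1:**
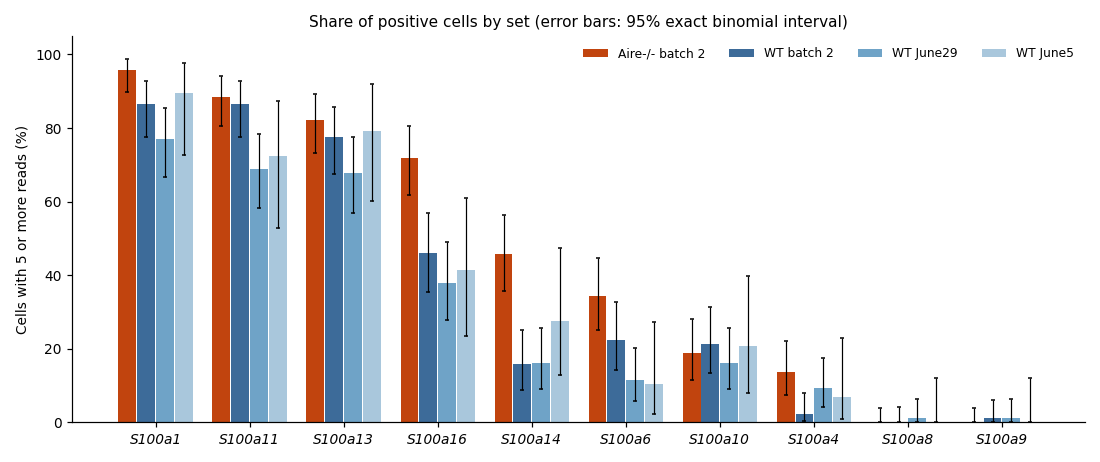
Share of cells with 5 or more reads (%) for the 10 members in the set labelled Aire-/-, WT batch 2, WT June29 and WT June5. Error bars are 95% exact binomial intervals over cells, and S100a16 (71.9% against 46.1% in WT batch 2) and S100a14 (45.8% against 15.7%) are the members whose first and second bars stand furthest apart.

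S100a1, a calcium sensor best known for tuning calcium release in heart muscle, was the most abundant member. Its summed level was 447 CPM in the set labelled Aire-/-, 398 in WT batch 2, 270.1 in June29 and 367 in June5. Single cells spanned 0 to 2288 CPM with a median of 408 in the set labelled Aire-/-, and 0 to 1467 with a median of 366 in WT batch 2. In June29 the median was 175.8 CPM with a highest cell of 1159, and in June5 313 with a highest of 867. The cells of all 4 sets overlapped from 0 to 867 CPM, and S100a1 was above 99.6% of the genes with reads in each set by CPM per kb. The share of positive cells was 95.8% (89.7% to 98.9%, the 95% counting interval, as beside other levels and shares) in the set labelled Aire-/- and 86.5% in WT batch 2. It was 77.01% (66.8% to 85.4%) in June29 and 89.7% in June5, which differ from the set labelled Aire-/- in batch as well.

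S100a11, which binds annexin A1 and takes part in membrane repair, had 234 CPM in the set labelled Aire-/- and 274 in WT batch 2. Both batch 1 sets were lower, with 55.4 CPM in June29 and 99.7 in June5. Its median cell had 174.6 CPM in the set labelled Aire-/-, 205 in WT batch 2, 45.9 in June29 and 86.6 in June5. The batch 2 sets therefore stood above both batch 1 sets in sum and in the median cell, while single cells overlapped from 0 to at least 313 CPM.

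Part of S100a11 cannot be told from pseudogenes. Of its 481 words of 31 bases, 48.9% occur in transcripts of 6 other genes, mainly the processed pseudogenes Gm12854 (46.99%) and Gm7665 (33.1%). The first 90 coding bases in the S100a11 exon at chr3:93524059-93524148 are identical, 90 of 90, in Gm12854 at chr4:116067268-116067357 (both plus strand, GRCm38), and are shown because a read within them fits both genes.
S100a11: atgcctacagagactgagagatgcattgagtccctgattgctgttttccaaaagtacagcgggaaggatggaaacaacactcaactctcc
Gm12854: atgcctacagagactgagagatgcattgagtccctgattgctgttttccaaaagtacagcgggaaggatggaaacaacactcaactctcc
The pseudogenes were given reads in all sets: Gm7665 had 53.6 CPM in the set labelled Aire-/-, 60.4 in WT batch 2, 24.2 in June29 and 44.4 in June5. Gm12854 had 24.03, 25.8, 22.9 and 39.6 CPM in the same sets. Across cells they followed S100a11 almost rank for rank, with Spearman correlations of 0.87 to 0.98 within sets, the highest of 3020 genes compared. The split of reads was alike within each batch and differed between batches. S100a11 took 75.1% (74.6% to 75.7%) of the reads of these 3 genes in the set labelled Aire-/- and 76.05% (75.5% to 76.6%) in WT batch 2, but 54.1% (53.15% to 55%) in June29 and 54.3% (52.8% to 55.7%) in June5. In cells with at least 20 such reads the quartiles were 73.3% to 78.96%, 74.03% to 77.85%, 50% to 58.9% and 53.3% to 57.8% in the same order. How reads with several matches were counted is not given in the sources used here, and its part in this split was not tested.

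**Figure D2:**
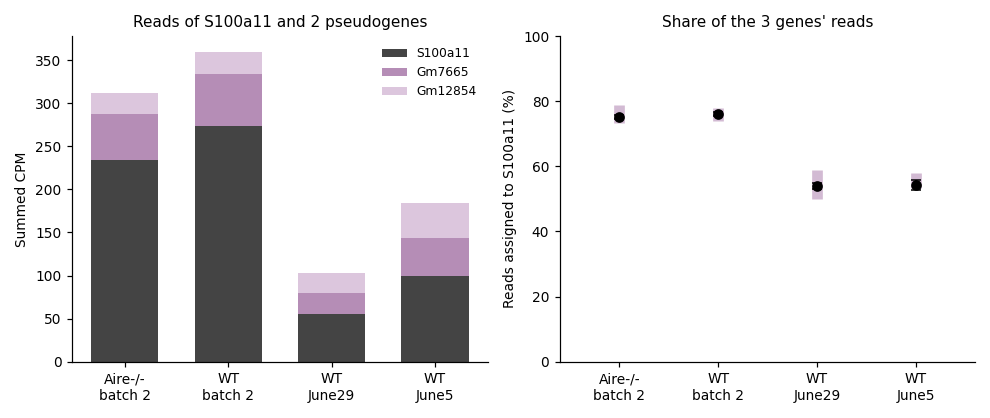
Left, summed CPM of S100a11 and of the pseudogenes Gm7665 and Gm12854, stacked, in each set. Right, the percent of their reads assigned to S100a11 (points with 95% exact binomial intervals; bands, quartiles over cells with at least 20 such reads): the batch 2 sets sit at 75.1% and 76.05%, the batch 1 sets at 54.1% and 54.3%.

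With the pseudogene reads added, the family had 312 CPM in the set labelled Aire-/-, 359.9 in WT batch 2, 102.5 in June29 and 183.7 in June5. The log2 fold of WT batch 2 over June29 was then 1.80, where S100a11 alone gave 2.28, and that over June5 was 0.97, where S100a11 alone gave 1.45. The fold within batch 2, the set labelled Aire-/- over WT batch 2, was -0.21 with the pseudogenes and -0.22 without.

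S100a10, or p11, the partner of annexin A2 whose loops no longer bind calcium, was read in a minority of cells. Its level was 14.1 CPM in the set labelled Aire-/- and 45.6 in WT batch 2, a log2 fold of -1.63. June29 had 12.9 CPM and June5 36.2. The share of positive cells hardly moved between these sets: 18.8% in the set labelled Aire-/-, 21.3% in WT batch 2, 16.1% in June29 and 20.7% in June5. The highest cell had 198 CPM in the set labelled Aire-/-, against 423 in WT batch 2. S100a10 was lower in the set labelled Aire-/- on plate 1 (4.98 against 32.7 CPM) and on plate 2 (23.3 against 61.3 CPM). In both 50-cell wells it was alike, 40.8 CPM in the one labelled Aire-/- and 40.2 in the WT one.

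S100a6, or calcyclin, a binder of annexins and of the calcyclin-binding protein Cacybp, had 89.1 CPM in the set labelled Aire-/- and 41.4 in WT batch 2 (log2 fold 1.09). June29 had 8.12 CPM and June5 16.6. The median cell had 0 CPM in all 4 sets, and the highest 998, 937, 195.2 and 156.9 in the same order. S100a6 was positive in 34.4% (24.98% to 44.8%) of cells labelled Aire-/-, 22.5% (14.3% to 32.5%) of WT batch 2, 11.5% of June29 and 10.3% of June5 cells. In the 50-cell wells its level was 174.2 CPM in the one labelled Aire-/- and 147.1 in the WT one. The cell richest in S100a6 in WT batch 2, with 21.8% of the set's reads, had 230 CPM over the tuft markers and 5263 CPM over markers of mTEC low cells.

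S100a4, a regulator of non-muscle myosin also found in mesenchymal and myeloid cells, stayed under 5 CPM in every set: 4.33 in the set labelled Aire-/-, 0.98 in WT batch 2, 4.47 in June29 and 2.28 in June5. It was positive in 13 of 96, 2 of 89, 8 of 87 and 2 of 29 cells. A single June29 cell held 65.8% of that set's reads, at 191.2 CPM, beside 1838 CPM of dendritic cell or macrophage markers. S100a4 shares 51.7% of its exon bases with Gm42674 on the same strand, an entry with 0 reads in the 4 sets, and how reads in such shared bases were counted is not stated in the labels.

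S100a13, which takes part in the release of FGF1 and other proteins lacking a signal peptide, had similar summed levels in both batch 2 sets. It had 92.9 CPM in the set labelled Aire-/- and 92.6 in WT batch 2, a ratio of 1.00 (0.97 to 1.04). June29 had 47.8 CPM and June5 79.9. The median cell had 77.6 CPM in the set labelled Aire-/-, 72.7 in WT batch 2, 22.96 in June29 and 42.2 in June5. Plate by plate the sets of batch 2 differed in opposite directions, with 92.3 against 112.1 CPM on plate 1 and 93.4 against 68.7 on plate 2. S100a13 and its back-to-back neighbour S100a1 had Spearman correlations of 0.31, 0.34, 0.31 and 0.16 across cells of the set labelled Aire-/-, WT batch 2, June29 and June5.

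**Figure D3:**
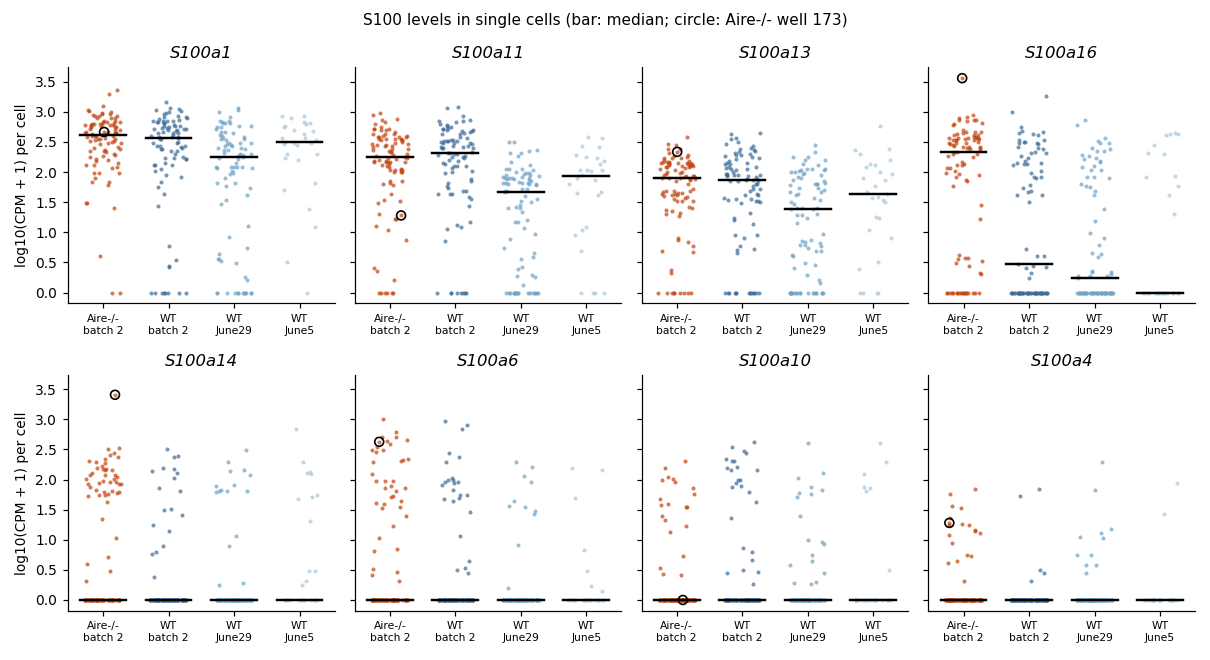
Level of 8 members in each kept cell, as log10(CPM + 1), by set; bars are medians over cells and the circle is well kw_tuft_173 of the set labelled Aire-/-. S100a16 has a median of 217 CPM in cells labelled Aire-/- and of 1.97 in WT batch 2, while the medians of S100a14, S100a6, S100a10 and S100a4 are 0 in all 4 sets.

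S100a16 and S100a14, neighbours in the cluster and most often studied in epithelia and their tumours, were the members whose shares of positive cells differed most within batch 2. S100a16 had 322 CPM (318 to 326) in the set labelled Aire-/- and 136.1 (133.1 to 139.2) in WT batch 2. June29 had 84.2 CPM and June5 126.9. Single cells had a median of 217 CPM and a highest of 3615 in the set labelled Aire-/-, against a median of 1.97 and a highest of 1828 in WT batch 2. June29 cells had a median of 0.74 CPM and June5 cells of 0. The median cell labelled Aire-/- thus lay above the upper quartile of each wild-type set, which was 168.6 CPM in WT batch 2, 78.9 in June29 and 85.5 in June5. Positive cells were 71.9% (61.8% to 80.6%) in the set labelled Aire-/- and 46.1% (35.4% to 56.96%) in WT batch 2.

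S100a14 had 120.2 CPM (117.7 to 122.8) in the set labelled Aire-/- and 24.9 (23.6 to 26.2) in WT batch 2. June29 had 22.1 CPM and June5 62.6. Positive cells were 45.8% (35.6% to 56.3%) in the set labelled Aire-/-, 15.7% (8.88% to 24.98%) in WT batch 2, 16.1% in June29 and 27.6% in June5. The median cell was at 0 CPM in each set. The highest had 2547 CPM in the set labelled Aire-/-, which was well kw_tuft_173, against 324 in WT batch 2.

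A gene was called by size alone. It had to reach 20 CPM in either set, differ by a log2 fold of 1 or more after adding 1 CPM, and have 15 or more points between its shares of positive cells, in that direction. In the set labelled Aire-/- over WT batch 2, 2 of 10 members were higher, S100a14 (log2 fold 2.23) and S100a16 (1.23), and 0 were lower. Over all 8267 genes with enough reads, 1.02% were higher and 0.399% lower by the rule. Of the 10 members, 7 reached 5 CPM in a set, and their median log2 fold was 0.17, beside -0.07 over 12759 genes. With 1 sample a set there is no p-value. S100a6 (1.09) passed the fold but not the gap in shares (11.9 points), as did S100a10 (-2.60 points), and S100a1, S100a11 and S100a13 lay between -0.22 and 0.17.

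Well kw_tuft_173 held 55.2% of the S100a14 reads and 29.3% of the S100a16 reads of its set. Without it S100a14 had 55.3 CPM and a log2 fold of 1.12, still higher by the rule, and S100a16 had 234 CPM and a fold of 0.77, no longer past the rule, where 1.13% of genes were higher and 0.425% lower. The shares of positive cells were 45.3% and 71.6% without that well, so the gaps to WT batch 2 stayed at 29.5 and 25.5 points. S100a6 had 80.2 CPM and a fold of 0.94 without it. WT batch 2 also had a rich cell for S100a16, well kw_tuft_102, with 21.2% of the set's reads, 24.4 CPM over the tuft markers and 13701 CPM over markers of keratinised epithelium. That cell was kept when well kw_tuft_173 was left out, so the fold of 0.77 leaves out a rich cell on the Aire-/- side only. The fold of S100a16 without both wells was not computed.

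On plate 1, where well kw_tuft_173 does not lie, both members passed the rule. There S100a14 had 43.9 against 16.6 CPM (log2 fold 1.35) and S100a16 228 against 108.5 CPM (1.07), and 2.65% of genes were higher and 1.46% lower. On plate 2, S100a14 had 197.4 against 34.9 CPM (2.47), S100a16 416 against 169.8 (1.29) and S100a6 88.7 against 25.5 (1.76), all past the rule, where 3.62% of genes were higher and 1.28% lower. Without well kw_tuft_173, neither S100a14 (67.4 CPM, fold 0.93) nor S100a16 (239 CPM, fold 0.49) passed on plate 2, and S100a6 did (70.3 CPM, fold 1.43), beside 3.73% of genes higher and 1.22% lower. The shares of positive cells were still 36.4 and 21.4 points apart for S100a14 and S100a16 there, so without the well the plate 2 calls ended on the fold alone.

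Plate 2 over plate 1 gave 0 called members in the set labelled Aire-/- (0.817% of genes higher, 2.17% lower), also without the well (1.09% higher, 2.5% lower), and 0 in WT batch 2 (0.627% higher, 3.12% lower). The log2 fold of S100a14 between plates was 2.14 in the set labelled Aire-/- (0.61 without the well) and 1.03 in WT batch 2.

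In cells with 5 or more Xist and fewer than 5 Y-linked reads, S100a14 (log2 fold 3.65), S100a16 (1.71) and S100a6 (1.02) were higher by the rule, beside 2.48% of genes higher and 1.1% lower. Without well kw_tuft_173, S100a14 (54.9 against 8.93 CPM, fold 2.49) and S100a16 (231 against 98.7 CPM, fold 1.22) passed and S100a6 (0.86) did not, beside 2.68% of genes higher and 1.13% lower. The 42 WT batch 2 cells so defined held 16.7% of the 1425 S100a14 reads of their set, and 30 cells with Y-linked reads only held 10.8%. The other 17 cells, with both kinds of read or neither, held 72.5%, at 80.3 CPM, so the low level of 8.93 CPM is that of part of the set. In the set labelled Aire-/-, the 10 such cells had 61.2 CPM. Between WT batch 2 cells with Xist only and those with Y-linked reads only, S100a14 (8.93 and 8.65 CPM) and S100a16 (98.7 and 93.1 CPM) were alike in level, and 0 members were called (2.91% of genes higher, 2.95% lower). S100a10 was not alike there, with 74.3 and 33.9 CPM (log2 fold 1.11). It was positive in 30.95% and 16.7% of these cells, 14.29 points apart and just short of the rule. In cells with Xist only, S100a10 had 11.3 CPM in the set labelled Aire-/- (fold -2.61 to WT batch 2), with 18.6% positive.

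The 50-cell wells did not show the S100a14 difference. S100a14 had 15 reads (27.8 CPM) in the well labelled Aire-/- and 23 reads (31.9 CPM) in the WT well. S100a16 had 432 CPM in the well labelled Aire-/- and 236 in the WT well. The labels of these wells name each other's count table, and their columns were matched by title. In such pooled wells, fewer cells with a transcript and less of it per cell cannot be told apart.

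Markers of Aire-expressing mTEC were also higher in sum in the set labelled Aire-/-. The 8 markers summed to 291 CPM in the set labelled Aire-/- (198.7 without well kw_tuft_173), 94.96 in WT batch 2, 96.2 in June29 and 77.4 in June5, and 27 of 96, 12 of 89, 10 of 87 and 5 of 29 cells had at least 2 of them. Aire itself is 1 of the 8 and gave 152.7 CPM of the sum in the set labelled Aire-/- (88.8 without the well), against 18.9 in WT batch 2. The other 7 summed to 137.98 CPM in the set labelled Aire-/- (109.9 without the well), 76.04 in WT batch 2, 84.99 in June29 and 69.6 in June5. S100a16 was positive in 28 of 32 cells labelled Aire-/- with 5 or more Aire reads and in 41 of 64 with fewer. In wild-type cells S100a16 was positive in 5 of 7 with and 36 of 82 without such Aire reads in WT batch 2, 3 of 7 and 30 of 80 in June29, and 3 of 5 and 9 of 24 in June5. S100a14 was positive in 20 of 32 cells with and 24 of 64 without such reads in the set labelled Aire-/-, and in 1 of 7 and 13 of 82 in WT batch 2, 3 of 7 and 11 of 80 in June29, and 1 of 5 and 7 of 24 in June5. The wild-type counts rest on 5 to 7 cells with Aire reads per set. Without all cells with 2 or more of these markers in both sets, S100a14 had 45.2 CPM in 69 cells labelled Aire-/- and 21.1 in 77 WT batch 2 cells (log2 fold 1.07, higher by the rule as were 1.81% of genes, with 0.518% lower). S100a16 then had 226 and 139.8 CPM (0.69, not past the rule), positive in 66.7% and 44.2% of cells. None of the 8 markers was at 0 in either batch 2 set, and beyond these values their part in the result was not tested.

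**Figure D4:**
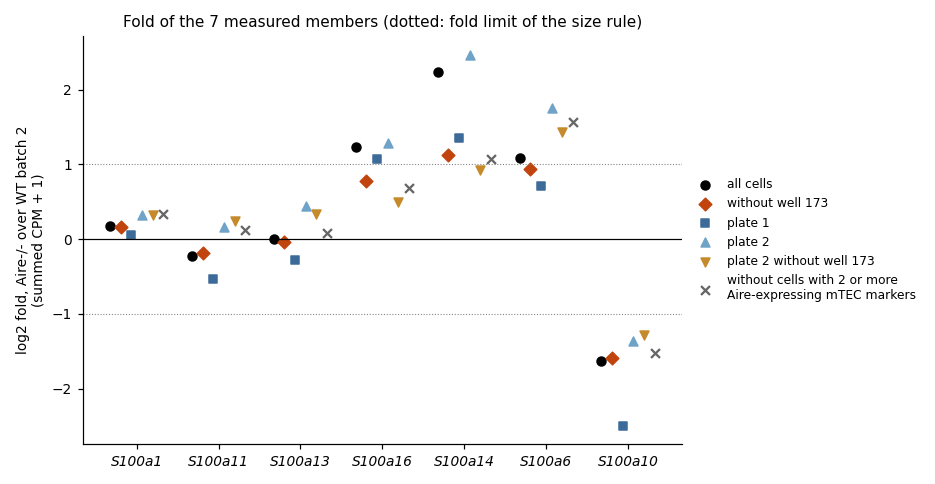
log2 fold, set labelled Aire-/- over WT batch 2, of the 7 members with at least 5 CPM, over all cells, without well kw_tuft_173, on each plate, on plate 2 without that well and without cells with 2 or more Aire-expressing mTEC markers; dotted lines mark a fold of 1 either way. S100a14 lies above 1 except on plate 2 without the well (0.93), S100a16 lies between 0.49 and 1.29, and S100a10 lies below -1 under all 6 choices of cells.

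S100a14 and S100a16 were often read in the same cells. Of S100a14-positive cells, 38 of 44 labelled Aire-/-, 9 of 14 in WT batch 2, 10 of 14 in June29 and 6 of 8 in June5 were positive for S100a16. Cells without S100a14 were positive for S100a16 in 59.6%, 42.7%, 31.5% and 28.6% of cases in the same order. Their Spearman correlation across cells was 0.45 (0.43 without well kw_tuft_173), 0.20, 0.27 and 0.39. S100a6 went with them: its correlation with S100a16 was 0.58, 0.30, 0.09 and 0.44, and with S100a14 0.47, 0.27, 0.29 and 0.35. Cells of a set share libraries and depth, so these are descriptions, and those of sparse members rest on few positive cells.

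**Figure D5:**
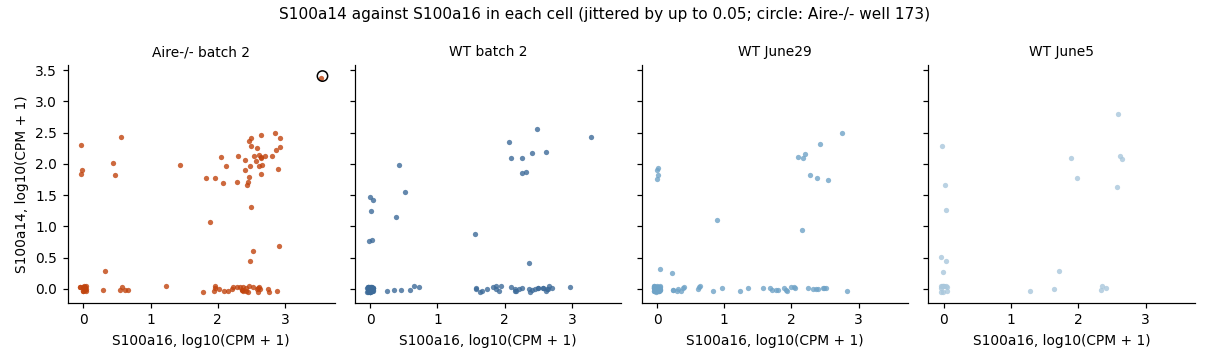
S100a14 against S100a16 in each cell, both as log10(CPM + 1), for the 4 sets, with a slight jitter; the circle is well kw_tuft_173. In the set labelled Aire-/-, 38 of the 44 S100a14-positive cells are also S100a16-positive, and well kw_tuft_173 lies beyond all other cells on both axes.

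The genes most like each widely read member were found by the mean Spearman correlation over the 4 sets, among 3020 genes at 20 CPM or more and positive in at least 25% of cells in every set. For S100a16 they were H2-Eb1, an MHC class II chain (0.48; 0.52, 0.44, 0.34 and 0.61 in the set labelled Aire-/-, WT batch 2, June29 and June5), Gm1821 (0.39) and the ubiquitin gene Ubb (0.38). For S100a1 they were S100a11 (0.42) and its pseudogenes Gm12854 (0.41) and Gm7665 (0.41). S100a11 was closest, after its pseudogenes, to Alox5ap (0.48), the partner of 5-lipoxygenase in leukotriene synthesis. S100a13 was closest to Rac2 (0.29), a GTPase of the cytoskeleton, Tspo (0.28) and S100a1 (0.28).

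S100a8 and S100a9 form calprotectin, abundant in neutrophils and released at sites of inflammation. S100a8 had 4 reads in 1 cell in the set labelled Aire-/-, 911 in June29, and 0 in WT batch 2 and June5. S100a9 had 0 reads in the set labelled Aire-/-, 7 in WT batch 2, 675 in June29 and 0 in June5. A single June29 cell, well June29_KW.62, held 910 of the S100a8 and 673 of the S100a9 reads, at 677 and 501 CPM. That cell had 6820 CPM over the tuft markers, with 13 of 15 positive, 363 CPM over 10 neutrophil markers and 327 CPM over 8 markers of dendritic cells or macrophages, with 1 marker positive in each of these lists. The neutrophil gene Ly6g was at 0 in all sets. The 7 S100a9 reads of WT batch 2 came from well kw_tuft_102, the cell rich in keratinised markers. With 0 of 96 cells at 5 or more reads of either gene in the set labelled Aire-/-, the 95% interval of the share reaches 3.77%, and the 4 S100a8 reads lay in 1 cell under that limit of 5. All intervals cover counting error only.

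The wild-type sets differed in several members without a change of genotype. WT June29 over WT June5 gave a median log2 fold of -0.73 over 9 measured members, beside 0.02 over 12769 genes, and 0 of 10 members passed the rule, beside 1.81% of genes higher and 3.4% lower. The lowest folds were those of S100a14 (-1.46, 22.1 against 62.6 CPM) and S100a10 (-1.41), with shares 11.5 and 4.60 points apart. WT batch 2 over June5 gave 0 calls (1.9% of genes higher, 3.97% lower), with S100a11 at 1.45, S100a6 at 1.27 and S100a14 at -1.30. WT batch 2 over June29 gave 1 call, S100a11 (2.28; 3.38% of genes higher and 2.68% lower), which did not pass with the pseudogene reads added, since the shares were then 86.5% and 72.4%. S100a6 (2.22) and S100a10 (1.74) were also more abundant in WT batch 2, with shares 10.98 and 5.26 points apart. At 55.3 CPM without well kw_tuft_173, the summed level of S100a14 in the set labelled Aire-/- lay inside its range between wild-type sets, 22.1 to 62.6 CPM, and below June5. Its share of positive cells without the well, 45.3%, lay above the 15.7% of WT batch 2, 16.1% of June29 and 27.6% of June5.

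Set against the batch 1 sets, which a batch separates from it, the set labelled Aire-/- had S100a6, S100a11 and S100a16 higher than in June5 (log2 folds 2.36, 1.22 and 1.33, beside 4.53% of genes higher and 5.15% lower). Against June29, S100a6, S100a11, S100a14 and S100a16 were higher (3.304, 2.06, 2.39 and 1.92, beside 7.21% of genes higher and 4.11% lower). S100a14 over June5 was 0.93 and did not pass. Without well kw_tuft_173, S100a6 (2.21) and S100a11 (1.26) passed against June5 and S100a16 (0.87) did not, and S100a14 was at -0.18, the other direction, beside 4.53% of genes higher and 5.13% lower. Against June29 the same 4 members passed without the well, S100a14 at 1.29 and S100a16 at 1.46, beside 7.51% of genes higher and 4.15% lower. These comparisons share the cells labelled Aire-/-, and batch and genotype cannot be told apart in them. With the pseudogene reads added and all cells kept, S100a11 had 312 CPM and 88.5% positive cells in the set labelled Aire-/-. June5 then had 183.7 CPM and 75.9% positive cells, and June29 102.5 CPM and 72.4%. By these values S100a11 would no longer pass the rule against June5, in fold or in share, but would still pass against June29. With the well, S100a16 was higher by the rule than in each of the 3 wild-type sets, and without it only than in June29. Its shares of positive cells stayed at least 25.5 points above those of each wild-type set without the well, whereas S100a11 was no higher than in WT batch 2.

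The partners and relatives of S100 proteins gave no gene past the rule in the set labelled Aire-/- over WT batch 2. Over all 8267 genes 1.02% were higher and 0.399% lower, so 0 calls among so few genes says little about them. Of 17 binding partners and receptors, 13 were measured with a median log2 fold of -0.06. Anxa2, the partner of S100a10, had 931 CPM in the set labelled Aire-/- and 611 in WT batch 2, and Anxa5 995 and 660.4 CPM. Ager, which encodes RAGE, had 0 reads in both sets, and Tlr4 1.55 and 0.035 CPM. Of 18 other EF-hand genes, 14 were measured with a median of -0.11, led by Calm2 with 2804 and 3014 CPM. Between wild-type sets, Anxa6 and Cacybp were lower and Ahnak and Myh9 higher in June29 than in June5, Anxa2 was lower in WT batch 2 than in June5 (610.7 against 1625 CPM), and Anxa11 was higher in WT batch 2 than in June5 and in June29 (101.4 against 40.4 and 33.3 CPM). Among EF-hand genes, Calml3, Chp1 and Hpcal1 were lower in June29 than in June5. In WT batch 2, Calml3 and Chp1 were lower and Calml4 higher than in June5, and Calml4, Pef1 and Hpcal1 higher than in June29. By the rule, 1.81% of all genes were higher and 3.4% lower in June29 than in June5. In WT batch 2 these shares were 1.9% and 3.97% against June5, and 3.38% and 2.68% against June29. Of the 6 genes that fuse an S100 domain to a long repeat, Rptn had 3.68 CPM in the set labelled Aire-/- and 172.96 in WT batch 2, positive in 3.13% and 5.62% of cells. The other S100 genes, 7 with entries, were at or under 20 CPM in each set. S100g, the vitamin D-dependent calcium carrier calbindin-D9k, had 1412 reads in the set labelled Aire-/-, and 1409 of them lay in well kw_tuft_173.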

How the data were processed

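Counts are the authors' deposited whole reads per gene, with wild-type and Aire-/- wells in separate tables, made with STAR and featureCounts 1.5.3 (Subread) on GRCm38 per the submitters' processing notes; the annotation and the handling of strand and of reads with several matches are not given in sources used here. A score table deposited by the authors, of unstated making and with R 3.4.0 named in the notes, served only as a list of 292 wells. The authors' table of well labels gave the plates. Names and positions are from GENCODE M21.

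Wells with at least 10000 gene reads (without 92 ERCC spike-ins), at least 1000 genes and at most 20% mitochondrial reads were kept, and no doublet caller was run. Summed counts have exact Poisson intervals and shares Clopper-Pearson intervals, both at the 95% level, with Python 3.11.15, numpy 2.4.6, pandas 2.3.3 and scipy 1.17.1. A gene was measured at 5 CPM or more in either set. The limit for a count of 0 is 3 counts. Without molecular identifiers, reads are not separate molecules, so intervals and limits cover counting error only. Alternatives used edgeR 4.0.16 and DESeq2 1.42.0 (R 4.3.3) for scaling factors alone, and thinning to 231697 reads per cell (seed 7). The computation was tested on simulated data.

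All 10 members are named. From lists of related genes, those past the size rule were named, and others were chosen after their values were seen. The members, the lists and the rules were chosen with earlier results of these data known, so nothing here is independent support of them. The alternatives of adding the pseudogene reads, of leaving out cells with Aire-expressing mTEC markers, and of leaving out well kw_tuft_173 on plate 2, in cells with Xist reads only and against batch 1 were added after the data were seen.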

Additional observations from a re-analysis of the deposited data

Results flagged for a closer look

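S100a11 and S100a13 differed in direction between the plates of batch 2. S100a11 had a log2 fold of -0.54 on plate 1 and 0.17 on plate 2, the set labelled Aire-/- over WT batch 2, and its counting interval lay to 1 side of no change on each plate. S100a13 had -0.28 on plate 1 and 0.44 on plate 2. Each plate gives 1 value per gene, so the difference between plates was not tested.

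S100a8 was present in a well that entered no comparison between sets. The WT 50-cell well of batch 2 had 70 S100a8 reads, 97.2 CPM, where the 50-cell well labelled Aire-/- had 0. That WT well had 0 S100a9 reads and 0 reads of the 10 neutrophil markers.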

How the results depend on the processing

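S100a14 stayed past the rule as higher in the set labelled Aire-/- than in WT batch 2 under 18 of 19 alternatives tried (log2 folds 0.93 to 3.65), all but plate 2 without well kw_tuft_173, and S100a16 under 14 of 19 (0.49 to 1.80). The count of members called there was 2, but 1 (S100a14) without well kw_tuft_173, without the cell richest in each gene, thinned to a fixed depth, or without cells with Aire-expressing mTEC markers, and 1 (S100a6) on plate 2 without the well. The richest cell was left out of the set with the higher level only. For S100a14 and S100a16 it was well kw_tuft_173, so that alternative repeats its removal for them. With the well, S100a6 passed beside S100a14 and S100a16 on plate 2 and in cells with 5 or more Xist and fewer than 5 Y-linked reads. S100a11 changed sign on plate 2, with and without the well, with ERCC scaling and without the mTEC-marker cells, none of them a call. The median log2 fold of the 7 measured members, 0.17, was 0.20 thinned, 0.27 with TMM scaling, 0.22 with DESeq2 size factors, 0.083 without the richest cell, 0.24 without cells with haematopoietic markers, 0.048 on plate 1, 0.44 on plate 2 (0.33 without the well), 0.35 in cells with 5 or more Xist and fewer than 5 Y-linked reads (also 0.35 without the well) and 0.34 without mTEC-marker cells. Scaled to ERCC reads, which shifts every gene by 0.57, it was 1.19, with S100a4 as an added measured member. Between June29 and June5 the count of 0 became 1 with 1 read for a positive cell (S100a14 lower), 3 when thinned (S100a10, S100a11 and S100a14 lower) and 1 without haematopoietic cells (S100a13 lower). Between WT batch 2 and June5 the count of 0 became 1 in the wells of the score table (S100a11), 1 with 1 read (S100a14 lower), 2 when thinned (S100a6 higher, S100a14 lower) and 1 without haematopoietic cells (S100a11). Between WT batch 2 and June29 the count of 1 became 3 when thinned (S100a11, S100a13 and S100a16) and 0 without haematopoietic cells, and with 1 read the 1 call was S100a6 in place of S100a11. Beyond the fewer reads or cells by construction, the cause was not tested. No paired analysis was possible because each set is 1 sample and well numbers only name wells. Depth limits S100a4, S100a8 and S100a9, which rest on few cells, and the shares of S100a11 and S100a13 also depended on it.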
